A study of Rattus norvegicus with 24 samples.

Results

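The transcripts described here were higher in the brains of old rats than in those of young rats in 2 assays at once, RNA-seq and ribosome profiling. RNA-seq counts fragments of all RNA molecules of a transcript and so measures its abundance. Ribosome profiling counts only the mRNA pieces that ribosomes shield from nuclease, here called footprints, and so measures how much of a transcript was occupied by ribosomes. Of 22938 transcripts counted, 172 met the rule that defines the set. A member had every old library above every young library, a mean in old animals at least 1.2 times that in young animals, and a mean in old animals of at least 1 CPM, in both assays of brain. CPM is a transcript's count scaled to one common library total, so that libraries of different depth can be compared. The members were thus chosen by their brain CPM values at both ages in both assays. Transcripts whose young liver RNA level was at least 10 times their young brain level, with 0.05 CPM added to the brain level, were left out, as were 2 listed transcripts.

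The study measured rat brain and liver in 2 age groups, 6 months (young) and 24 months (old). Each age group had 3 animals, and each animal gave an RNA-seq and a ribosome profiling library from each organ, so that 8 groups of 3 libraries resulted. The animal codes in the sample titles recur across organs and assays, and the replicates are separate animals. Brain and liver were homogenised as tissue, and strain, sex and treatment are not stated in the labels used here.

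The deposited tables hold Ensembl rat transcript identifiers alone. None of the 22938, that is 0, could be found in a RefSeq gene table of assembly GRCr8, so the files do not pair the members with gene names, positions or sequences, and no functions are given. As background, a transcript's footprint count follows both how much of its RNA there is and how densely ribosomes sit on it, so footprints are also read as a ratio to RNA. In ageing brain tissue generally, genes of glial and immune cells are among those most often described as rising. Whether the members belong to them was not tested.

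RNA-seq libraries held 14281043 to 28664906 counts and footprint libraries 5259326 to 17584871. To check the organ labels, the 50 most abundant of the transcripts at least 10 times higher in young liver than in young brain were summed in each brain library. In 5 of the 6 animals their sum was, in both brain assays, between 0.653% and 1.17% of its level in the same animal's liver. In old animal 2 it was 4.66% for brain RNA and 6.19% for brain footprints. Old animal 2 thus stood apart from the other 5 animals in both brain assays. The median brain ratios of the whole set, and the counts of members called in brain, are given with and without it. Brain ratios of single transcripts include it.

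The rule kept members by their brain values, so the levels and ratios of brain that follow are a description and carry no test. The RNA-seq part of the rule was met by 863 transcripts, the ribosome profiling part by 1068, and both by 260. Of these 260, 86 were left out as higher in liver and 2 as listed. The members were 1.35% of the 12728 transcripts with an old mean of at least 1 CPM in both brain assays that were not left out for their liver level. The mirrored rule, with every old library below every young one, was met by 43 transcripts.

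Summed over the 172 members, their share of all brain RNA-seq counts was 0.619%, 0.542% and 0.558% in the 3 young animals. In the old animals it was 0.796%, 0.863% and 0.95%. The means were 0.573% ± 0.0407 (SD, n = 3) in young brain and 0.870% ± 0.0771 (SD, n = 3) in old brain. In brain ribosome profiling the share was 0.783%, 0.676% and 0.738% in young animals and 1.11%, 1.09% and 1.18% in old animals. The means there were 0.732% ± 0.0542 and 1.13% ± 0.0450 (SD, n = 3 each). The members thus took up a small part of the brain libraries at either age. In both assays the young and old shares did not overlap, which the rule fixes in advance for such a sum. In bulk tissue, more cells of a type and more RNA per cell cannot be told apart.

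**Figure D1:**
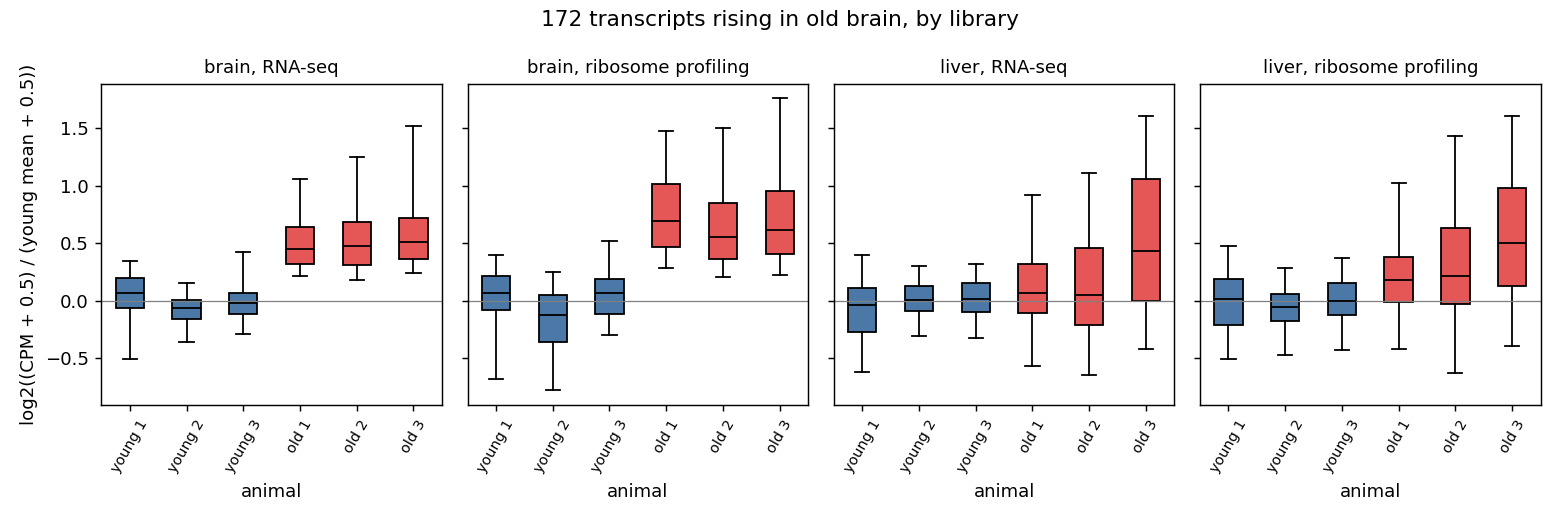
Level of the 172 members in each library relative to the young mean of the same organ and assay, on the scale log2((CPM + 0.5) / (young mean + 0.5)). Boxes span the middle 50% of members with the median as a line, and whiskers run from the 5th to the 95th percentile. The brain panels show values the rule selected; in liver the median of old animal 3 was 0.43 in RNA-seq and 0.50 in ribosome profiling, above old animals 1 and 2.

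Most members were modestly higher in old brain. The ratio of the old to the young mean in RNA-seq had a median of 1.43 over the members, with the middle 50% of members between 1.30 and 1.73. In footprints the median was 1.63, with the middle 50% between 1.40 and 2.05. Over all eligible transcripts the medians were 1.002 and 0.995. An RNA ratio of at least 2 was found for 26 members and a footprint ratio of at least 2 for 47. Both ratios reached 2 in 24 members, both reached 1.5 in 59, and both stayed below 1.5 in 60.

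Each of the 3 old animals was the highest one for a sizeable number of members. The highest RNA-seq value among the old animals was in animal 1 for 49 members, in animal 2 for 49 and in animal 3 for 74. In footprints it was in animal 1 for 74, in animal 2 for 40 and in animal 3 for 58, and the same animal was highest in both assays for 89 members. Without old animal 2, the median ratio was 1.43 in RNA-seq and 1.65 in footprints, and 167 and 169 of the 172 members kept a ratio of at least 1.2. Leaving out any 1 of the 6 animals, the median ratio stayed between 1.41 and 1.44 in RNA-seq and between 1.54 and 1.66 in footprints, and at least 158 and 167 members kept a ratio of 1.2. Single animals did move the number of transcripts that met the rule. Without old animal 2, 300 transcripts met it, of which 165 were members. Without young animal 1, 422 transcripts met it, of which 166 were members, and without young animal 2, 206 met it, of which 155 were members.

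Beside the sum of liver-enriched transcripts in old animal 2, the values of the members were as follows. Had each member carried in that animal the same excess share of its own liver level, the excess would have come to a median of 9.72% of the rise in RNA-seq and 11.5% of the rise in footprints. It would have come to at least 50% of the rise for 16 members in RNA-seq and for 27 in footprints. In old animals 1 and 3 the medians were between 0.411% and 0.688%. The part of this excess in the ratios was not tested.

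At the edges of the rule, 103 transcripts missed it only on the ratio. The highest of them had a smaller ratio of 1.1995, and the lowest member one of 1.2014. Another 9 missed it only on the level, the highest at 0.849 CPM, while the lowest member had 1.08 CPM in its weaker assay. The member closest to the exclusion had a liver level 9.93 times its brain level, and the nearest transcript left out had 10.3 times.

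The largest ratio belonged to a transcript at trace level and is not a stable value. This member had 0, 0 and 1 RNA-seq counts in young brains and 19, 2 and 32 in old brains, and 0, 0 and 1 footprint counts in young brains against 11, 2 and 28 in old brains. From the pooled counts the ratio was 50.5 in RNA-seq with a 95% exact interval from 8.68 to 2032, and 38.7 in footprints with one from 6.57 to 1566, which cover counting error only. It was singled out after its values were seen. Old animal 2 had 2 counts in each assay, so the rise rests mainly on old animals 1 and 3. In all, 4 members had a young brain library at 0.

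Among members with an old mean of at least 10 CPM in both assays, the 2 with the largest smaller ratio are named. ENSRNOT00000048332 measured 5.95, 6.86 and 11.3 CPM in young brain RNA-seq and 26.6, 36.2 and 18.0 CPM in old brain, means of 8.02 ± 2.83 and 26.9 ± 9.12 (SD, n = 3 each) and a ratio of 3.36. Its footprints measured 4.33, 10.3 and 12.8 CPM in young and 29.3, 40.5 and 25.6 CPM in old brain, a ratio of 3.48. In both assays old animal 2 was the highest and old animal 3 the lowest of the old animals, and young animal 3 was the highest of the young ones. In liver the same transcript measured 23.0, 30.2 and 26.6 CPM of RNA in young animals and 35.4, 51.7 and 51.3 CPM in old ones, a ratio of 1.73. Its liver groups did not overlap in RNA-seq, while in liver footprints the lowest old value, 38.2 CPM, lay below the highest young one, 40.1 CPM.

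ENSRNOT00000025354 measured 10.6, 14.2 and 20.8 CPM in young brain RNA-seq and 50.1, 68.1 and 33.4 CPM in old brain, a ratio of 3.32. Its footprints measured 27.6, 52.4 and 81.0 CPM in young and 171, 215 and 124 CPM in old brain, a ratio of 3.17. The order of the animals was the same as for ENSRNOT00000048332 in RNA-seq and in footprints. Its young liver means were 46.0 CPM of RNA and 114 CPM of footprints, both above the young brain means of 15.2 and 53.7 CPM. Both named transcripts were therefore more abundant in CPM in young liver than in young brain, and both were highest in the old brain that also had the largest sum of liver-enriched transcripts. Old animals 1 and 3 also lay above every young animal in both assays, as the rule required of every member. The part of liver-enriched RNA in the values of old animal 2 was not tested.

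**Figure D2:**
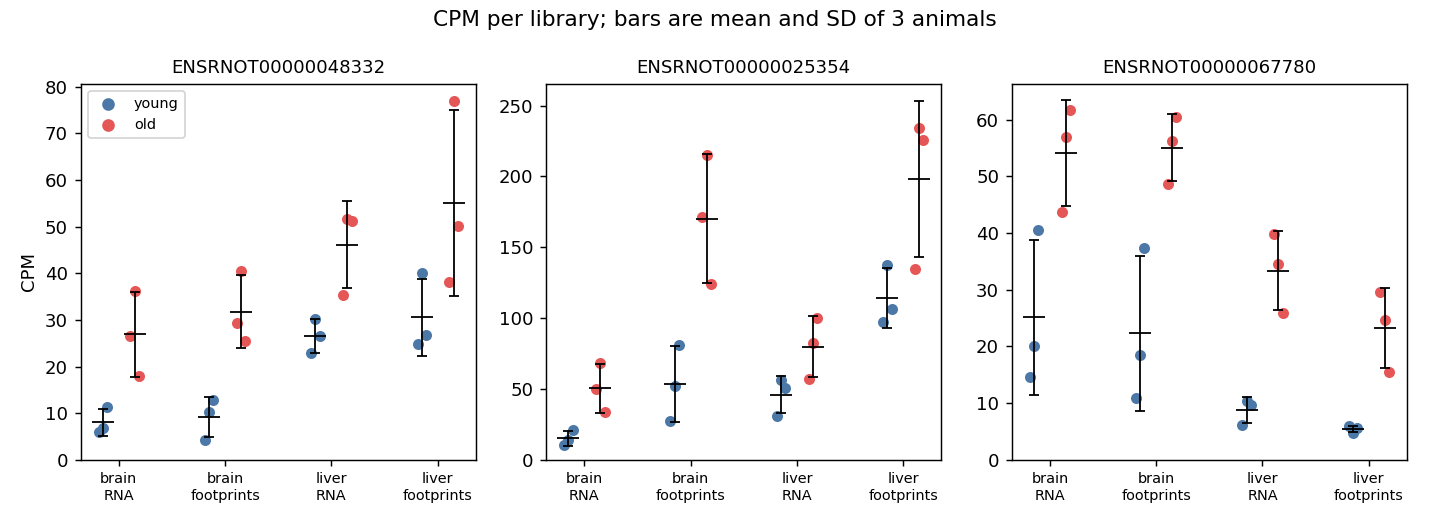
CPM of 3 members in each of the 24 libraries, by organ and assay; dots are animals, and bars are the mean and SD of 3 animals. ENSRNOT00000048332 and ENSRNOT00000025354 had the largest smaller brain ratio, and ENSRNOT00000067780 had the smallest p for a rise in liver, where its old libraries lay between 15.5 and 39.8 CPM and its young libraries between 4.81 and 10.4 CPM.

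The most abundant member in young brain lay near the lower end of the ratios. It measured 903, 923 and 822 CPM in young brain RNA-seq and 1135, 1043 and 1193 CPM in old brain, a ratio of 1.27. Its footprints went from a mean of 1398 CPM to one of 1853 CPM, a ratio of 1.33. Members spanned a wide range of levels: in old brain 114 reached 10 CPM in RNA-seq and 120 in footprints, and 20 reached 100 CPM in each assay. The median young level was 11.02 CPM in RNA-seq and 11.7 CPM in footprints, and the median old level 15.8 and 19.0 CPM.

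The footprint ratio exceeded the RNA ratio in 131 of the 172 members. The median difference of the log2 ratios, footprints minus RNA, was 0.13. It exceeded 0.5 for 23 members and lay below -0.5 for 3. Across members, which are not independent replicates and come from the same 6 animals, the log2 ratios of the assays had a Pearson's r of 0.82 and a Spearman's rho of 0.67, and r was 0.66 without the trace member. The rule required both ratios to reach the same threshold, so this relation is a description of the set only.

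**Figure D3:**
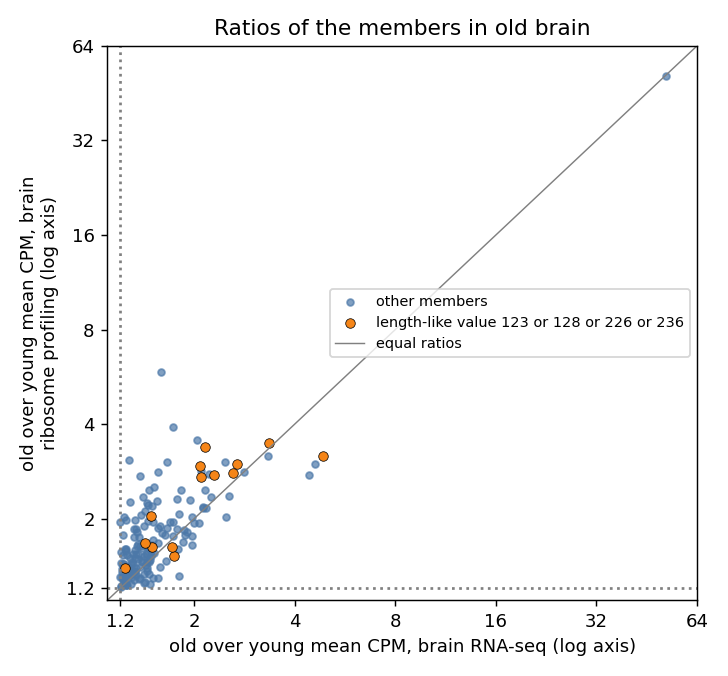
Ratio of the old to the young mean CPM in brain for each member, RNA-seq on the x axis and ribosome profiling on the y axis, both on log axes; dotted lines mark the threshold of 1.2 and the grey line equal ratios; orange points are the 14 members that share a length-like value with 2 or more other members. More members lie above the line of equal ratios (131) than below it, and the trace member lies apart with ratios of 51.8 and 51.3.

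With edgeR's quasi-likelihood test over all transcripts, 23 of the 171 members that passed the low-count filter had an adjusted p under 0.05 for higher brain RNA in old animals, where the background was 0.315% of 13986 transcripts (44 called). In footprints it was 36 of 168 members, where the background was 0.789% of 13570 transcripts (107 called). Without old animal 2 the counts were 3 (7 of all transcripts) and 29 (135 of all). They moved with single animals and with the tool. In RNA-seq, leaving out 1 animal gave from 0 (without young animal 2, 1 of all) to 94 (without young animal 1, 581 of all). In footprints it gave from 8 (without young animal 2, 12 of all) to 39 (without young animal 1, 148 of all). DESeq2 called 75 and 60 members (188 and 189 of all), and limma-voom 3 and 26 (5 and 43 of all). A replicate block gave 56 and 51 (167 and 204 of all), and a spread over 12 libraries 0 and 6 (0 and 12 of all). The rule used these same contrasts, so nothing is read from these counts.

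A length-like value, which no header defines, stands beside each count in the deposited files. Its median was 382 over the members and 434 over the eligible transcripts, with the middle 50% between 233 and 620 and between 252 and 713. Most values were held by 1 or 2 members, and 4 values were each held by 3 or more, an observation made after the values were seen. The value 123 was held by 3 members of 14 eligible transcripts, 128 by 4 of 22, 226 by 3 of 21 and 236 by 4 of 16. The 4 with the value 236 include ENSRNOT00000048332. Together these 14 members had RNA ratios in brain from 1.24 to 4.86 (median 2.09) and footprint ratios from 1.40 to 3.48 (median 2.73), where the medians of the whole set were 1.43 and 1.63. The 59 eligible transcripts that share the 4 values and are no members had median ratios of 1.03 in RNA-seq and 1.04 in footprints. The rule parted members from other transcripts by these same ratios, so nothing is read from this contrast.

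Summed, the 14 members measured 1127, 752 and 897 CPM in young brain RNA-seq and 1439, 2300 and 2742 CPM in old brain. Their footprints summed to 860, 556 and 777 CPM in young and 1482, 2051 and 2178 CPM in old brain. In liver RNA the young sums were 980, 1274 and 1454 CPM and the old ones 1454, 1077 and 2249 CPM, so that the age groups overlapped there. Old animal 1 was the lowest of the old brains and old animal 3 the highest of the old brains and livers in RNA-seq. Liver footprints summed to 1294, 1024 and 1334 CPM in young and 1431, 1390 and 1813 CPM in old animals, which did not overlap. A pair of the members with the value 123 had log2 levels that ran nearly in parallel over the 24 libraries (Pearson's r 0.996 of log2(CPM + 0.5), a description), whereas among pairs with the value 236 r ran from -0.67 to 0.93. Near-identical copies can share reads, depending on a counting rule that the sources here do not give, so parallel members may not be separate measurements. Over the whole set, 0 members had counts identical to those of another transcript throughout.

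Liver was not used for the age contrast of the rule, and it shows how the same transcripts behaved in another organ of the same animals. The members leaned towards higher values in old liver in both assays, but 0 of them passed edgeR's adjusted threshold there. Of the 172 members, 147 passed the low-count filter in liver RNA-seq and 140 in liver ribosome profiling. A filter that sees both ages can let a member in through its higher group, so the counts were also taken with a filter on the young libraries alone, which was chosen after the data were seen.

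In liver RNA-seq, edgeR's quasi-likelihood test with Benjamini-Hochberg adjustment over 12198 transcripts called 0 of the 147 members higher (background 0.0164%, 2 called) and 0 lower (background 0%). At an unadjusted p under 0.05, 57 of the 147 members were higher, against a background of 11.1%, and 6 were lower, against a background of 12%. The 3 old libraries lay above the 3 young ones, on TMM-scaled CPM, for 51 members (background 14.3%) and below them for 6 (background 15.4%). On CPM without TMM factors these counts were 41 (background 7.51%) and 7 (background 17.9%). The log2 fold change was above 0 for 118 members (background 51.1%), and its median was 0.39 over the members tested and 0.01 over all transcripts tested. With the filter on young libraries, 139 members entered, 54 were higher at an unadjusted p under 0.05 (background 11.1%), 5 were lower (background 12%), and the median was 0.35. DESeq2 called 35 members higher and 2 lower at an adjusted p under 0.05, where it called 454 and 629 of all 12198 transcripts. With limma-voom 0 members were called in either direction. Without young animal 1 edgeR called 20 members higher, and 287 of all 12459 transcripts, so the calls moved with 1 control library.

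In liver ribosome profiling, edgeR called 0 of the 140 members higher (background 0.0176%, 2 of 11396 called) and 0 lower (background 0%). At an unadjusted p under 0.05, 40 members were higher (background 6.33%) and 4 lower (background 5.87%). The old libraries lay above the young ones for 35 members (background 9.15%) and below them for 4 (background 9.53%), and without TMM factors for 46 (background 13.5%) and 2 (background 5.53%). The log2 fold change was above 0 for 108 members (background 51.9%), with a median of 0.34 over the members tested and 0.01 over all. With the filter on young libraries, 41 of 134 members were higher (background 6.21%), 4 were lower (background 5.83%), and the median was 0.32. DESeq2 called 13 members higher and 0 lower, where it called 135 and 86 of all 11396 transcripts. With limma-voom 0 members were called in either direction.

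The lean towards higher values was uneven over the old animals. Relative to the young mean, the median log2 level of the 172 members in liver RNA-seq was 0.07 in old animal 1, 0.05 in old animal 2 and 0.43 in old animal 3. In liver footprints it was 0.18, 0.22 and 0.50. Old animal 3 was thus the highest in both liver assays. The 50 most abundant transcripts at least 10 times higher in young brain than in young liver were also summed. In liver RNA-seq they came to 2411 CPM in old animal 3 and to between 1564 and 1863 CPM in the other animals. In liver footprints these sums were 2679 CPM and between 1757 and 2045 CPM. The part of this difference in the lean was not tested. Without old animal 3 edgeR called 4 members higher in RNA-seq (28 of all 12234 transcripts) and 4 in footprints (32 of all 11413). Summed over the members, the share of counts in liver RNA-seq was 0.691% ± 0.0419 in young and 0.802% ± 0.106 in old animals, and the old values of 0.776%, 0.711% and 0.918% overlapped the young ones of 0.648%, 0.694% and 0.732%. In liver footprints it was 0.760% ± 0.0379 in young and 0.922% ± 0.0634 in old animals (SD, n = 3 each), and the groups did not overlap. The correlation of level with the length-like value also differed by age in liver RNA-seq, with Spearman's rho from 0.27 to 0.28 in young and from 0.22 to 0.25 in old libraries over the transcripts at 1 CPM or more, and its part in the lean was not tested.

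**Figure D4:**
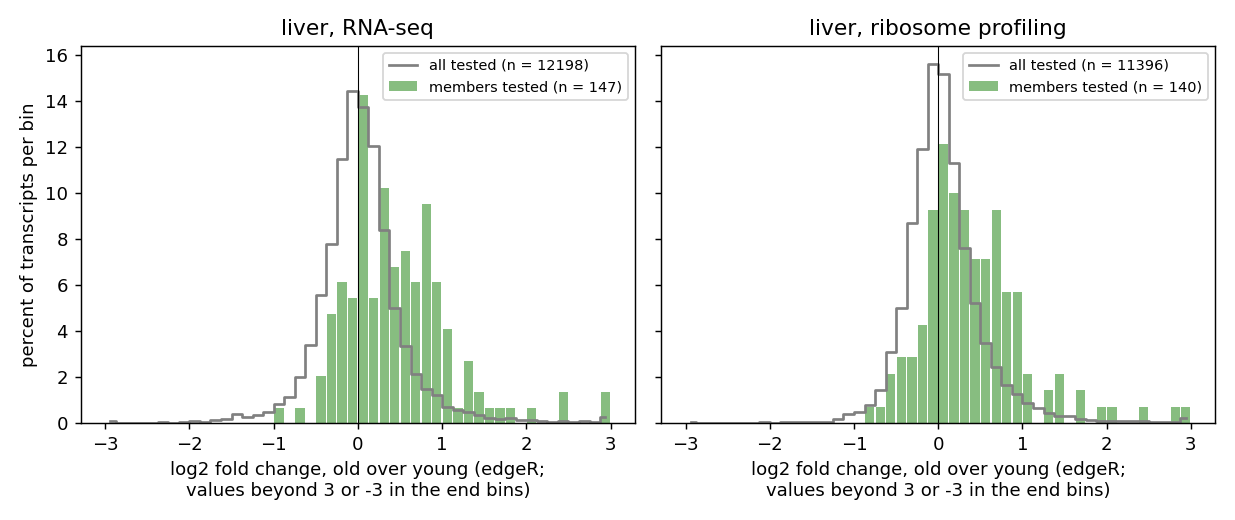
Distribution of edgeR's log2 fold change, old over young, in liver RNA-seq and liver ribosome profiling, as the percent of transcripts in each bin; bars are the members tested and the grey line all transcripts tested. The members' medians were 0.39 and 0.34, and those of all transcripts tested 0.01 and 0.01.

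The member with the smallest p for a rise was the same in both liver assays. ENSRNOT00000067780 measured 6.10, 10.4 and 9.59 CPM in young liver RNA-seq and 39.8, 34.5 and 25.9 CPM in old liver. Its log2 fold change was 2.08 (SE 0.26) with edgeR's adjusted p = 0.0547, just short of the threshold, and the adjusted p ran from 1.02e-10 to 0.289 over 14 alternatives, 6 of which called it. In liver footprints it measured 5.91, 4.81 and 5.63 CPM in young and 29.5, 24.8 and 15.5 CPM in old animals. The log2 fold change there was 2.01 (SE 0.27) with edgeR's adjusted p = 0.0573, and 5 of 14 alternatives called it, with adjusted p from 1.03e-07 to 0.386. In brain RNA-seq the same transcript measured 14.7, 20.1 and 40.6 CPM in young and 43.6, 56.9 and 61.7 CPM in old animals. The age groups did not overlap in either liver assay, and the rule required the same of both brain assays. The transcript was picked by its liver p, so its separation in liver is a description too. Its spread among young animals was wider in brain than in liver.

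Going down in liver, the smallest p in RNA-seq belonged to ENSRNOT00000032825, which measured 5.21, 6.52 and 6.02 CPM in young and 3.03, 3.46 and 4.14 CPM in old liver. Its log2 fold change was -0.64 (SE 0.15) with edgeR's adjusted p = 0.0797, short of the threshold, with a range from 0.0117 to 0.305 over 14 alternatives, 2 of which called it. In brain RNA-seq it measured 4.25, 3.17 and 4.33 CPM in young and 5.19, 5.13 and 5.18 CPM in old animals. In liver footprints the smallest p for a lower value belonged to ENSRNOT00000000037, which measured 5.40, 4.22 and 4.21 CPM in young and 3.46, 2.06 and 2.93 CPM in old liver. Its log2 fold change was -0.82 (SE 0.29) with edgeR's adjusted p = 0.311, from 0.156 to 0.676 over 14 alternatives, and its liver RNA did not follow, with a young mean of 9.08 CPM and an old mean of 9.19 CPM.

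Applying the ratio, level and separation of the rule to liver, in both assays, 306 transcripts were higher in old liver and 215 lower. Of the 172 members, 20 were among the higher ones, which is 11.6% of the members and 6.54% of the higher liver transcripts. Of all eligible transcripts, 1.87% were among the higher ones. Members were among the lower ones 0 times, against 1.03% of the eligible transcripts. The median ratio of these 20 was 1.73 in brain RNA-seq, 1.70 in brain footprints, 1.94 in liver RNA-seq and 2.01 in liver footprints.

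Summed over these 20, RNA in liver measured 353, 336 and 373 CPM in young and 813, 764 and 946 CPM in old animals. Footprints in liver summed to 415, 332 and 375 CPM in young and 789, 884 and 1018 CPM in old animals. In brain RNA-seq the sums were 389, 379 and 430 CPM in young and 613, 626 and 695 CPM in old animals. Old animal 3 had the largest sum of the old animals in all 3 of these, and the spread within an age was small beside the gap between ages, which the choice of the 20 fixes. The largest liver footprint ratio among them, 11.5, belonged to a member with 8.02, 8.30 and 15.4 CPM in young and 159, 138 and 69.3 CPM in old liver, which measured 11.4, 15.7 and 26.5 CPM in young and 37.7, 44.6 and 69.0 CPM in old brain RNA-seq. It was singled out after its values were seen.

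Between organs in young animals, members were found on both sides. Of the 172 members, 34 had a young liver RNA level under 0.1 times their brain level, 49 between 0.1 and 1 times, 34 between 1 and 2 times and 55 between 2 and 10 times, each with 0.05 CPM added to the brain level. The median brain RNA ratio of old to young was 1.5, 1.34, 1.46 and 1.43 in these 4 classes, and 1.498, 1.38, 1.47 and 1.42 without old animal 2. The median footprint ratios were 1.63, 1.58, 1.70 and 1.64, and 1.67, 1.60, 1.70 and 1.66 without that animal. The rule selected on these ratios, so their likeness over the classes is a description and nothing is read from it.

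**Figure D5:**
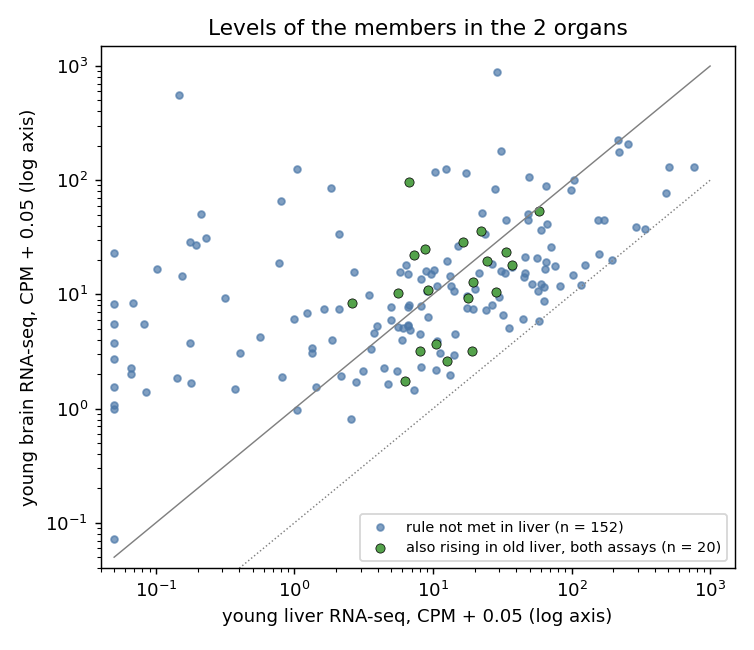
Young RNA-seq level of each member in liver (x axis) and brain (y axis), as CPM + 0.05 on log axes; the solid line marks equal levels and the dotted line a liver level 10 times the brain level, beyond which transcripts were left out. The 20 members that were also higher in old liver in both assays are drawn in green, and the others, 152 members, in blue.

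At the brain end, 7 members had 0 counts in every liver library, and these too were higher in old brain by the rule. Summed, they measured 19.1, 25.4 and 25.6 CPM in young brain RNA-seq and 37.6, 37.1 and 41.2 CPM in old brain. Their footprints summed to 21.4, 25.3 and 25.01 CPM in young and 53.0, 42.6 and 40.1 CPM in old brain. Old animal 2 lay within or below the range of the other old animals in both assays. Their median ratios were 1.80 in RNA-seq and 2.06 in footprints, values that the rule selected. These 7 were grouped after their values were seen, and no cause of their rise was tested.

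Tested with edgeR on TMM-scaled counts, 42 of 169 members were higher in young brain than in young liver RNA-seq at an adjusted p under 0.05 (background 45%), and 108 were lower (background 37.3%). In footprints 37 of 162 were higher in brain (background 43.3%) and 97 lower (background 33%). The exclusion of transcripts at least 10 times higher in liver limits the second count, and the young brain libraries also entered the rule as the low group. These counts moved with the scaling. With library totals alone, an alternative chosen after the data were seen, the median log2 difference of all transcripts, brain minus liver, went up from 0.16 to 1.31 for RNA, and for footprints from 0.22 to 1.61. The counts of members became 68 higher and 68 lower in RNA-seq, where 10299 and 2402 of all 14289 transcripts were called. In footprints they became 62 and 61, where 9982 and 1962 of all 13774 transcripts were called. Relative to the median of all transcripts, the members' median was lower under both scalings, at -1.27 with TMM and -0.11 with totals in RNA-seq, and at -1.42 and -0.03 in footprints. Selecting on low values in young brain can itself lower this median, so nothing is read from it.

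The members highest in brain over liver were nearly absent from liver. ENSRNOT00000020926 measured 583, 548 and 551 CPM in young brain RNA-seq and had 5, 1 and 0 counts in young liver. From the pooled counts its level in brain was 5371 times that in liver (95% exact interval from 2467 to 14636, counting error only). Its footprints measured 1417, 1258 and 1323 CPM in young brain, against 1, 1 and 0 counts in young liver. ENSRNOT00000049657 measured 20.8, 23.7 and 24.2 CPM in young brain RNA-seq and 15.5, 16.3 and 16.3 CPM in footprints, with 0 counts in young liver in either assay. Taking 3 counts summed over the 3 liver libraries as the floor, it was at least 438-fold higher in brain RNA-seq and at least 236-fold higher in brain footprints. In old brain these 2 members reached 1.30 and 1.42 times their young RNA level, with a narrow spread among young animals.

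At the liver end, ENSRNOT00000067649 measured 5.82, 6.60 and 4.93 CPM in young brain RNA-seq and 42.3, 63.0 and 68.5 CPM in young liver. It lay just inside the exclusion at 10 times the brain level. That cut bounds how far any member can lie on this side, so the values here are a description. The log2 difference of ENSRNOT00000067649, brain minus liver, was -4.47 (SE 0.18, edgeR's adjusted p = 5.44e-08) in RNA-seq and -5.05 (SE 0.21, edgeR's adjusted p = 1.31e-09) in footprints. ENSRNOT00000034235 followed in RNA-seq at -4.45 (SE 0.14, edgeR's adjusted p = 1.32e-08), and ENSRNOT00000044208 in footprints at -5.04 (SE 0.29, edgeR's adjusted p = 1.09e-07). With library totals alone the first of them lay at -3.32 in RNA-seq and -3.66 in footprints. All 3 were called under each of the 10 alternatives run, and their RNA means in old and young liver were 44.1 and 57.9 CPM, 146 and 197 CPM, and 116 and 124 CPM.

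Within young brain, footprints were compared with RNA, which shows how strongly members were occupied by ribosomes at the younger age. The test is relative to the average transcript, and the rule did not use the contrast of assays, although it used the same young libraries. Members also had to reach 1 CPM in old brain footprints, which was not asked of the background. The rule can thus remove transcripts poor in footprints, so nothing is read from the difference between members and background. Of the 170 members that passed the filter, edgeR called 64 higher in footprints than in RNA-seq (background 33.4%) and 31 lower (background 33.4%). The members' median log2 difference was 0.22, and that of all 14032 transcripts tested was -0.00. The counts were 37.6% and 18.2% of the members tested. With library totals alone the counts were 53 and 39, where 4207 and 5160 of all 14032 transcripts were called.

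Taken as the ratio of mean footprint to mean RNA CPM, young brain had a median of 1.096 over the members and 0.927 over the eligible transcripts. Ratios of 0.5 or less were found for 20 members, which is 11.6%, and for 18.1% of the eligible transcripts. Ratios of 2 or more were found for 19 members, 11.05%, and for 10.5% of the eligible transcripts. In old brain, where the rule used both assays, the members' median was 1.17.

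The strongest footprint excess among members was that of ENSRNOT00000029179. It measured 1.83, 1.68 and 1.46 CPM in young brain RNA-seq and 11.3, 6.55 and 10.1 CPM in footprints, a log2 difference of 2.60 (SE 0.29, edgeR's adjusted p = 6.82e-06). ENSRNOT00000019052 followed with 1.31, 1.29 and 3.06 CPM of RNA and 7.04, 8.14 and 10.4 CPM of footprints, a log2 difference of 2.27 (SE 0.36, edgeR's adjusted p = 0.000140). For both, the lowest footprint value lay above the highest RNA value. In the other direction, ENSRNOT00000022622 measured 3.33, 3.04 and 2.66 CPM of RNA and 0.309, 0.531 and 0.208 CPM of footprints, which rest on 4, 3 and 2 counts. Its log2 difference was -3.08 (SE 0.49, edgeR's adjusted p = 0.000139). ENSRNOT00000033222, which has the largest length-like value of the members (5549), measured 9.61, 5.96 and 7.72 CPM of RNA and 1.78, 1.24 and 0.521 CPM of footprints, a log2 difference of -2.57 (SE 0.39, edgeR's adjusted p = 8.98e-05). All 4 kept their direction and their call under the 10 alternatives run.

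With age, in brain, the 4 had these ratios of old to young. ENSRNOT00000029179 reached 1.63 times its young level in old brain RNA and 1.77 times in footprints. ENSRNOT00000019052 reached 2.55 times in RNA and 2.37 times in footprints, the only one of the 4 with the smaller ratio in footprints. ENSRNOT00000022622 reached 1.28 times in RNA and 3.08 times in footprints, and ENSRNOT00000033222 1.65 and 3.03 times. The footprint ratios of the last 2, which had the fewest footprints per RNA among the members, exceeded their RNA ratios and rest on low footprint counts in young brain. This is a description of values that the rule selected.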

How the data were processed

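The members and all lists and tests were chosen with earlier results of these data known. The deposited files hold, per library, a whole-number count for each of 22938 transcripts, not normalised by the authors, and a second number that resembles a length, deposited with no header and no stated unit. It was missing for 3097 transcripts. Per the labels' protocols, a stranded kit was used for RNA-seq, and footprints came from nuclease-treated ribosomes. TopHat2 2.0.10, Bowtie 1.0.0.0, DESeq and build rn4 are listed in the submitters' processing notes without their roles. The annotation, the counting rule and the handling of multiply mapped reads are not given in the sources used.

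From the deposited counts, CPM was computed with each library's total, and the rule was applied to it. Tests ran in R 4.3.3 with edgeR 4.0.16 (robust two-sided quasi-likelihood F test, TMM factors, minimum count 10 and minimum total 15), fitted on the whole table of the 6 libraries compared, with Benjamini-Hochberg adjustment over all transcripts tested and a threshold of 0.05. Each standard error comes from the log2 fold change and its F statistic. Alternatives were DESeq2 1.42.0, limma-voom (limma 3.58.1), other scalings and filters, a spread from more libraries, a replicate block and leaving out each animal. The scripts were tested on simulated data. Reads carried no molecular identifiers, so counting intervals cover counting error only.

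Named members follow a rule: in brain, the 2 with the largest smaller ratio at 10 CPM or more. In each tested comparison they are the 2 called members with the largest difference in each direction, or where none was called the member with the smallest p. Replicate numbers mark animals, by the codes in the sample titles. Young brain libraries of the same animal deviated together between the assays (r 0.26, 0.15 and 0.15, at most 0.005 between different animals). Between the organs r was 0.14, 0.04 and 0.09 in RNA-seq and 0.09, 0.01 and 0.02 in footprints. Different animals reached 0.05 there in each assay, above some of these values, so the pairing of organs rests on the codes. Young and old animals with the same number are different animals. The gene and marker lists planned by symbol could not be run, because 0 identifiers matched.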

Additional observations from a re-analysis of the deposited data

Results flagged for a closer look

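Among the members tested in liver, 7 had every old library below every young one in RNA-seq, on plain CPM (4.76%, background 17.9%). In ribosome profiling 2 did (1.43%, background 5.53%), so both shares lay below the background. In brain the rule placed every old library above every young one. The member with the smallest p for a lower value in each liver assay is given here. The liver RNA of ENSRNOT00000032825 in old animals was 0.599 times that in young animals, with every old library below every young one, while its brain RNA was 1.32 times the young level. The liver footprints of ENSRNOT00000000037 in old animals were 0.610 times those in young animals, with every old library below every young one, while its brain footprints were 1.43 times the young level. The difference between the organs was not tested, because the rule fixed the direction in brain. In the other assay the liver groups of both transcripts overlapped, with ratios of 1.02 and 1.01.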

How the results depend on the processing

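Depth limits members with few counts: the smallest old brain count of a member was 2. Under the alternatives to the rule, 158 transcripts met it with TMM-scaled totals (132 of them members), 129 with median-ratio totals (126), 185 without the 10 most abundant transcripts in the totals (168), 134 at a level of 5 CPM, 117 with the liver exclusion at 2 times and 258 without it, but 59 at a ratio of 1.5. Leaving out 1 animal gave from 206 to 422. In old against young liver RNA-seq edgeR called 0 members in either direction. DESeq2 called 35 higher and 2 lower (454 and 629 of all transcripts), and no filter 7 higher (67 of all). A spread over 12 libraries gave 42 higher and 5 lower (1006 and 1248 of all), and library totals alone 2 higher (8 of all). Leaving out 1 animal gave from 0 to 20 members higher and from 0 to 1 lower. Over all transcripts that range was from 0 to 287 higher and from 0 to 354 lower. In liver footprints DESeq2 called 13 higher (135 of all transcripts), no filter 4 (37 of all), a spread over 12 libraries 6 (52 of all) and library totals alone 3 (13 of all). Leaving out 1 animal gave from 0 to 4 members, and from 0 to 56 of all transcripts. With the replicate block, 4 members (24 of all transcripts) were called higher in liver RNA-seq and 1 (3 of all) in liver footprints. There the numbers do not pair animals, whose deviations correlated at -0.02, -0.05 and 0.16 in RNA-seq and -0.02, -0.05 and 0.10 in footprints. Between young brain and liver, library totals alone gave 68 members higher and 68 lower in RNA-seq (10299 and 2402 of all transcripts). In footprints they gave 62 and 61 (9982 and 1962 of all). In young brain the block on animals gave 67 members higher in footprints and 31 lower (4719 and 4785 of all transcripts). The cause of these shifts was not tested. Of all alternative counts, 103 stayed within 1.5 times the main count, some of them given above, and 26 did not. The single transcripts kept their direction in all 176 cases, 13 of which newly passed the threshold.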
